A study of Mus musculus with 16 samples.

Results

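The caveolins and cavins are the 6 genes Cav1, Cav2, Cav3, Cavin1, Cavin2 and Cavin3, measured here in mouse embryonic stem cells that were differentiating into blood and endothelial cells. They were taken as every probe set annotated with 1 gene symbol, where that symbol was one of these names or the older names Ptrf for Cavin1, Sdpr for Cavin2 and Prkcdbp for Cavin3. This gave 11 of the 45037 probe sets tested, and 6 of the 18193 genes that the annotation names. Cav1, Cav3 and Cavin3 had 1 probe set each, Cav2 had 2, and Cavin1 and Cavin2 had 3 each. The probe sets were taken by symbol, with no array value used, but the 6 genes were listed with earlier results of these data known.

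CCE embryonic stem cells, a mouse line, were grown on irradiated embryonic fibroblasts, taken off them, and allowed to form embryoid bodies once leukemia inhibitory factor was withdrawn. Cells were fixed in ethanol and acetic acid, stained for a surface marker and sorted by flow cytometry, and RNA was put on Affymetrix Mouse Genome 430 2.0 arrays. At day 2.5 the sort was for VEGF-R2, the receptor encoded by Kdr that marks mesoderm able to give blood and endothelium. At day 3.5 the sorts were for CD41, an early marker of blood precursors encoded by Itga2b, and for CD144, the endothelial cadherin encoded by Cdh5. At day 6.5 the sort was again for CD144. Each sort gave a positive and a negative population, and each of the 8 populations had 2 arrays from separately conducted experiments, 16 arrays in all. All populations came from this line, and the labels name no further agent, so the groups differ by day and by sorting marker. CD41 positive and CD144 positive cells were subsets of VEGF-R2 positive cells, and a negative population was a mixture of the cell types that lacked the marker on that day. The study's text gives the CD41 negative cells as lacking VEGF-R2 as well, and Kdr read 53.5 and 95.1 in them against 1001 and 740 in CD144 negative cells of the same day, so the CD41 contrast is also one of VEGF-R2. Replicates are named 1 and 2.

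Caveolae are small pits of the plasma membrane that are abundant in endothelial cells, smooth muscle, fat cells and fibroblasts. Their membrane-embedded coat is built of caveolins. Caveolin-1 is needed for caveolae outside striated muscle, caveolin-2 is carried to the surface together with caveolin-1, and caveolin-3 takes that place in striated muscle. Cavins are coat proteins that join from the cytoplasm: cavin-1 is required for the pit to form, cavin-2 helps to bend the membrane, and cavin-3 has been linked to the traffic of caveolae and to signalling. In endothelium caveolae are known for transcytosis, for sensing stretch and for holding endothelial nitric oxide synthase in check.

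In build GRCm38.p6, Cav2 (chr6:17281185-17289130) and Cav1 (chr6:17306335-17341328) lie next to each other on the plus strand, with 17204 bases between the end of Cav2 and the start of Cav1. Cav3 is farther along the same chromosome at chr6:112459505-112472872. Cavin1 is at chr11:100956736-100970617 on the minus strand, Cavin2 at chr1:51289126-51302960 and Cavin3 at chr7:105480616-105482197. RefSeq start-site windows were at hand for 5 of the 6 genes. The 250 bases before the first listed start of Cav1, Cav2 and Cavin1 are shown because these 3 genes carried most of the differences below, and Cav1 and Cav2 are neighbours. Capitals mark matches to a GC box (GGGCGG or its reverse complement CCGCCC) and, in Cavin1 only, to a KLF core (CCACCC or its reverse complement GGGTGG), searched on both strands. Each run reads from 5′ to 3′ on the gene's own strand. The windows are chr6:17306085-17306334 for Cav1, chr6:17280935-17281184 for Cav2 and chr11:100970618-100970867, minus strand, for Cavin1.
Cav1: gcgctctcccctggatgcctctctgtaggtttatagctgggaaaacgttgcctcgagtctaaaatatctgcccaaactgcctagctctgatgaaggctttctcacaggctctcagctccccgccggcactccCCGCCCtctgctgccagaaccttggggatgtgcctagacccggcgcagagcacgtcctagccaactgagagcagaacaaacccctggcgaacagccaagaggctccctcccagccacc
Cav2: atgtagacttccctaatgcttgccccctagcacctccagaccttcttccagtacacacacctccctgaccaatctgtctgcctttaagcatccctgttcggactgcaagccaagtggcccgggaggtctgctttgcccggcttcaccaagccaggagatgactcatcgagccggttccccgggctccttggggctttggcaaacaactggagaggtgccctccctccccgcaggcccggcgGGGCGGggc
Cavin1: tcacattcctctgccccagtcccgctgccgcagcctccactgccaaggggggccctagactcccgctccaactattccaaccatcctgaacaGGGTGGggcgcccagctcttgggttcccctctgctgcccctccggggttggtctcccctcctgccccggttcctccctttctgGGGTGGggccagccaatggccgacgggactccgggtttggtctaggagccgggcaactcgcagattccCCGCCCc
The GC box began 118 bases before the start of Cav1, 9 bases before that of Cav2 and 7 bases before that of Cavin1. Of all 32851 RefSeq windows of 250 bases, 32.7% held a GC box, and 28.1% held a KLF core, which Cavin1 had 2 times. The letters searched for as an ETS core (AGGAAG or CTTCCT, in 29.5% of windows) were not found in the windows of the 5 genes. Nor were those of a forkhead core (TGTTTA or TAAACA, in 12% of windows). The windows of Cav3 and Cavin2 held none of the 4 motifs. Shorter or variant forms of these motifs were not searched for, so their absence is not shown. The share of G and C was 59.6% for Cav1, 62% for Cav2, 67.6% for Cavin1, 56% for Cav3 and 40.4% for Cavin2. A match describes the letters alone.

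The deposited signals are the MAS5 measure of a probe set's brightness, set by the authors so that each array had the same trimmed mean. A signal can be compared between arrays for 1 probe set, but not between probe sets. The median of all signals was 85.8, and their lower quartile was 23.4, under which the measure is noisy. Differences were tested on log2(signal + 6) by a limma model of the 16 arrays, with the Benjamini-Hochberg adjustment over the 45037 probe sets. A difference was called when its adjusted p was under 0.05, and log2 differences are given with their standard error (SE). On that scale the fold of a dim probe set is understated.

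Each sorting marker's transcript was called higher in the cells sorted as positive for it, with log2 differences of 1.49 for Kdr, 4.87 for Itga2b, and 5.85 and 6.05 for Cdh5 at days 3.5 and 6.5. These transcripts did not follow their own sort alone. Cdh5 was 5.38 higher in CD41 positive than in negative cells, and Itga2b 3.08 higher in CD144 positive than in negative cells at day 3.5. In CD144 positive minus CD41 positive cells of day 3.5, Cdh5 differed by 0.67 (limma adjusted p = 0.277) and Itga2b by -1.86 (adjusted p = 5.96e-05). The 8 arrays of positive populations differed from the 8 of negative populations in the added spike-in transcripts: the geometric mean of 16 such probe sets was 4878 to 8431 on the first and 1636 to 2325 on the second. Duplicates also correlated less among positive arrays (Spearman 0.872 to 0.895) than among negative ones (0.945 to 0.955). A comparison of positive with negative cells is therefore also a comparison of those array sets, and the part of either cannot be told apart. The CD41 positive duplicates stood apart from each other. Summed endothelial marker signals were 14808 and 24767 in them, and pluripotency marker signals 1912 and 5946. Signals of the endoderm list summed to 8758 and 19206, with 3 of its 8 genes above 100 on both arrays. Each of these sums was higher in replicate 2. Primitive erythroid and hematopoietic marker signals, those of the sorted lineage, were 123559 and 103437, higher in replicate 1. Called differences of the 6 genes that rest on these arrays are given with and without 1 of them, and values of other genes with both only.

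**Figure D1:**
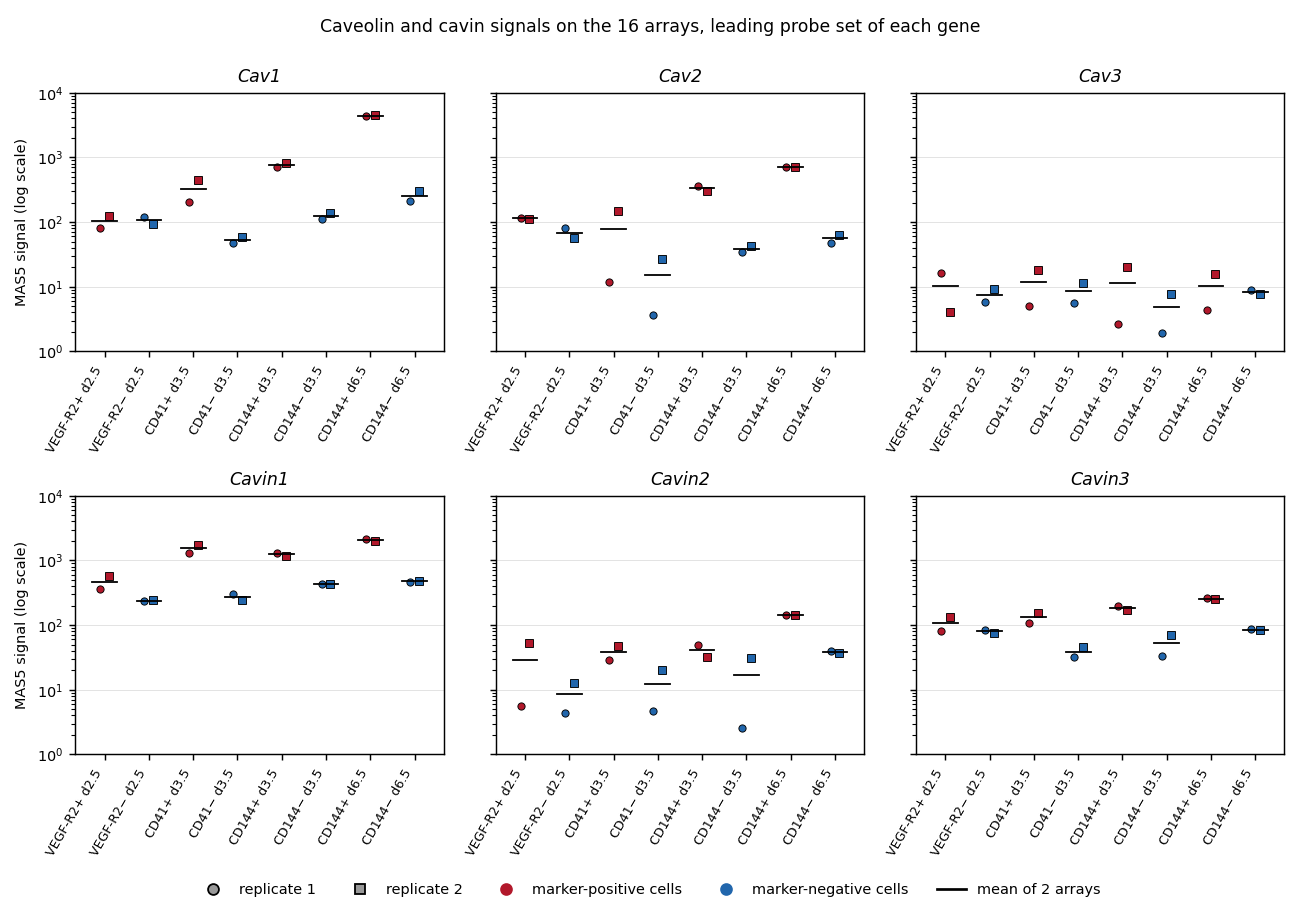
MAS5 signal (log scale) of the leading probe set of each gene on the 16 arrays. Circles and squares are replicates 1 and 2, horizontal bars the mean of both, red the marker-positive and blue the marker-negative populations. Cav1 in CD144 positive cells of day 6.5 stands at 4362 and 4465, while Cav3 lies between 1.95 and 20.3 on every array.

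Cav1, the coat protein that caveolae outside striated muscle are built on, had the widest range of the 6 genes, 6.22 on the log2 scale between its highest and its lowest population mean. Its signal was 81.4 and 126 in VEGF-R2 positive cells of day 2.5 and 118 and 93.8 in VEGF-R2 negative cells. These 4 arrays overlapped. At day 3.5 it was 201 and 451 in CD41 positive cells against 47.7 and 59.0 in CD41 negative cells. It was 713 and 834 in CD144 positive cells of that day against 110.5 and 136 in CD144 negative cells. At day 6.5 it reached 4362 and 4465 in CD144 positive cells against 213 and 298 in CD144 negative cells. In these 3 later sorts the positive and negative arrays did not overlap.

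Cav1 was 17.1-fold higher in CD144 positive than in CD144 negative cells at day 6.5 (log2 difference 4.10, SE 0.33, limma adjusted p = 3.32e-07). The same contrast at day 3.5 gave 6.03-fold (2.59, adjusted p = 3.96e-05), and CD41 positive against negative cells gave 5.21-fold (2.38, adjusted p = 3.61e-05; 2.95 without CD41 positive replicate 1 and 1.81 without replicate 2, both called). At day 2.5 the log2 difference was -0.05 with a 95% interval of -0.76 to 0.65. All 3 later sorts were thus called for Cav1 and the first was not.

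Across the positive populations Cav1 rose by 5.36 on the log2 scale, 41.2-fold, from VEGF-R2 positive cells of day 2.5 to CD144 positive cells of day 6.5 (SE 0.33, adjusted p = 2.19e-08). The steps were each called as well: 2.86 to CD144 positive cells of day 3.5 (adjusted p = 4.66e-05) and 2.51 from there to day 6.5 (adjusted p = 0.000297). To CD41 positive cells it rose by 1.52 (adjusted p = 0.00679), and it was 1.34 higher in CD144 positive than in CD41 positive cells of the same day (adjusted p = 0.0157). These last results lean on the CD41 positive arrays that stood apart. Without CD41 positive replicate 2 the rise was 0.95 (adjusted p = 0.0768), and without replicate 1 the gap to CD144 positive cells was 0.77 (adjusted p = 0.212). The rise to CD41 positive cells also missed the threshold without VEGF-R2 positive replicate 1 (1.22, adjusted p = 0.0743), and the gap to CD144 positive cells without either CD144 positive array (adjusted p = 0.0513 and 0.116).

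In the negative populations Cav1 was higher at day 6.5 than at day 2.5 by 1.21 (SE 0.33, adjusted p = 0.0295). That call was lost without either VEGF-R2 negative array (adjusted p = 0.092 and 0.239) or without CD144 negative replicate 2 (adjusted p = 0.241). Between CD144 negative cells of days 3.5 and 6.5 the log2 difference was 1.0, with adjusted p = 0.328, although the arrays did not overlap. The order of the 8 population means ran from CD144 positive day 6.5 through CD144 positive day 3.5, CD41 positive, CD144 negative day 6.5, CD144 negative day 3.5, VEGF-R2 negative and VEGF-R2 positive to CD41 negative cells. Of the 7 steps between neighbours in that order only the first 2 were called, and from CD41 positive cells down no neighbours differed by more than the test could tell. Over all 28 pairs of populations, 20 were called for Cav1. No share over all probe sets was taken for such counts of pairs, so here and for the other genes they are a description only.

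Cav2, the partner that travels with caveolin-1, was led by probe set 1417327_at, the brighter of its pair. Its signal was 115 and 113 in VEGF-R2 positive cells and 80.7 and 56.1 in VEGF-R2 negative cells. It was 362 and 305 in CD144 positive cells of day 3.5 against 34.5 and 42.5 in CD144 negative cells, and 708 and 715 against 47.9 and 64.1 at day 6.5. The groups did not overlap in any of these 3 contrasts, though the day 2.5 difference was not called (log2 difference 0.71, limma adjusted p = 0.542). In CD41 positive cells the duplicates read 11.8 and 147, a 12.4-fold gap, and in CD41 negative cells 3.64 and 27.0.

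Cav2 was 11.7-fold higher in CD144 positive than in CD144 negative cells at day 6.5 (log2 difference 3.54, SE 0.75, adjusted p = 0.00256) and 7.63-fold higher at day 3.5 (2.93, adjusted p = 0.00972). The day 3.5 call was lost without CD144 positive replicate 1 (2.81, adjusted p = 0.0578) or CD144 negative replicate 1 (2.80, adjusted p = 0.0731). Against VEGF-R2 positive cells, Cav2 in CD144 positive cells of day 6.5 was 2.58 higher (adjusted p = 0.0256). Leaving out any 1 of the 4 arrays of that contrast moved its adjusted p to between 0.0959 and 0.109 with nearly the same difference, 2.57 to 2.59. Cav2 was among the genes that the study picked from these same arrays for its difference in endothelial cells, so its direction there is not independent of that choice.

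For CD41 positive cells Cav2 had no settled direction. Against CD41 negative cells the log2 difference was 1.55 (adjusted p = 0.137), 3.10 without CD41 positive replicate 1 (adjusted p = 0.00137) and -0.00059 without replicate 2. Against VEGF-R2 positive cells it was -1.20 (adjusted p = 0.382), 0.35 without replicate 1 (adjusted p = 0.823) and -2.75 without replicate 2 (adjusted p = 0.0104). CD144 positive cells of the same day were 2.70 higher than CD41 positive cells (adjusted p = 0.0293), but 1.15 higher without CD41 positive replicate 1 (adjusted p = 0.353). That call was also lost without either CD144 positive array (adjusted p = 0.121 and 0.109).

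The order of the Cav2 means was CD144 positive day 6.5, CD144 positive day 3.5, VEGF-R2 positive, VEGF-R2 negative, CD144 negative day 6.5, CD41 positive, CD144 negative day 3.5 and CD41 negative cells. No 2 neighbours in it differed past the threshold. The step from CD144 positive cells of day 3.5 to those of day 6.5 was 1.08 (95% interval -0.49 to 2.66, adjusted p = 0.458), and it was called when those populations were fitted alone (adjusted p = 0.0171). Of the 28 pairs, 12 were called. The other Cav2 probe set, 1425955_at, gave another picture: its signals lay between 7.68 and 178, it was called in none of the 14 comparisons in limma (1 had an unadjusted p under 0.05), and its correlation with the leading one over the 8 population means was 0.27.

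Cav3, the caveolin of striated muscle, was read by probe set 1418413_at. Its signal lay between 1.95 and 20.3 on all 16 arrays, under the lower quartile of all signals, and its population means spanned 0.65 on the log2 scale. In limma none of its 14 comparisons was called or had an unadjusted p under 0.05, and none of the 28 pairs was called. In CD144 positive against negative cells at day 6.5 the 95% interval of its log2 difference was -1.39 to 1.57. Markers of striated muscle were present in some of the same populations. Their summed signal over 10 genes was 12399.6 and 12271 in VEGF-R2 positive cells, where Myl7, the atrial light chain, gave 10854 and 10815. The skeletal muscle regulators Myod1 and Myog stayed at 109 or lower and 56 or lower on every array. Cav3 read 16.5 and 4.13 in those VEGF-R2 positive cells.

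Cavin1, the cavin that the pit cannot form without, was led by probe set 1424130_a_at, which was above 100 on all 16 arrays. Its signal was 364 and 574 in VEGF-R2 positive cells against 232 and 247 in VEGF-R2 negative cells. It was 1306 and 1759.9 in CD41 positive cells against 299 and 240.4 in CD41 negative cells. In CD144 positive cells it was 1315 and 1153 at day 3.5 and 2124 and 1991 at day 6.5, against 432 and 438, and 468 and 481, in CD144 negative cells. In each of the 4 sorts both positive arrays were above both negative ones.

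Cavin1 was the one gene of the 6 with a called difference at day 2.5, 1.89-fold higher in VEGF-R2 positive than in VEGF-R2 negative cells (log2 difference 0.92, SE 0.21, adjusted p = 0.00387), though without VEGF-R2 positive replicate 2 this was 0.59 (adjusted p = 0.0762). At day 3.5 it was 5.56-fold higher in CD41 positive than in negative cells (2.47, adjusted p = 1.53e-07) and 2.80-fold higher in CD144 positive than in negative cells (1.49, adjusted p = 9.24e-05). At day 6.5 it was 4.29-fold higher in CD144 positive cells (2.10, adjusted p = 2.86e-06). Without CD41 positive replicate 1 or 2 the CD41 difference was 2.69 or 2.26, called both times. All 4 sorts were thus called for Cavin1.

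From VEGF-R2 positive cells Cavin1 rose by 1.72 to CD41 positive cells (adjusted p = 3.84e-05; 1.93 or 1.5 without CD41 positive replicate 1 or 2, both called), by 1.42 to CD144 positive cells of day 3.5 (adjusted p = 0.000447) and by 2.15 to CD144 positive cells of day 6.5 (adjusted p = 3.52e-06). Between CD144 and CD41 positive cells of day 3.5 the difference was -0.30 (95% interval -0.74 to 0.15, adjusted p = 0.447). The rise between days 3.5 and 6.5 in CD144 positive cells was 0.74 (adjusted p = 0.0483), and leaving out any 1 of its 4 arrays took the call away (adjusted p 0.0905 to 0.228). In the negative populations Cavin1 was 0.97 higher at day 6.5 than at day 2.5 (adjusted p = 0.00665, but 0.0746 without VEGF-R2 negative replicate 1). In the order of means, CD144 positive day 6.5, CD41 positive and CD144 positive day 3.5 came first, then CD144 negative day 6.5, VEGF-R2 positive, CD144 negative day 3.5, CD41 negative and VEGF-R2 negative cells. Only the gap between CD144 positive day 3.5 and CD144 negative day 6.5, 1.36, was called between neighbours, and 21 of the 28 pairs were called.

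The other Cavin1 probe sets were dim. The probe set 1421431_at gave 3.13 to 119 and 1453891_at gave 2.08 to 30.9. Neither was called in any of the 14 comparisons in limma (5 of these 28 results had an unadjusted p under 0.05), and their correlations with the leading probe set over the population means were 0.67 and 0.15.

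**Figure D2:**
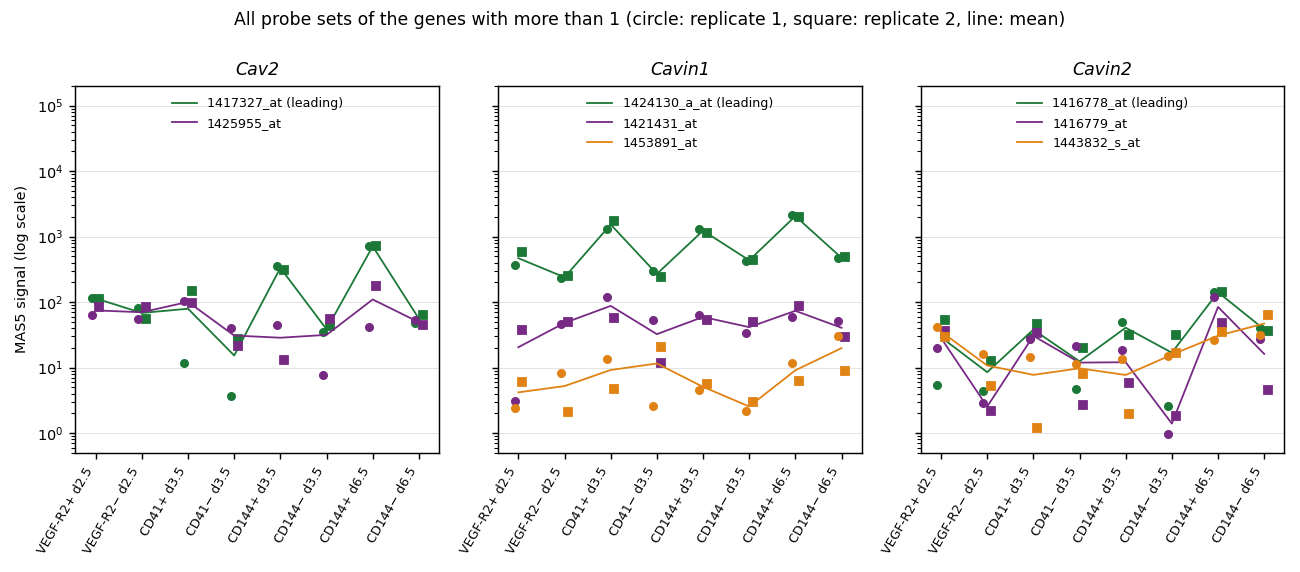
MAS5 signal (log scale) of every probe set of Cav2, Cavin1 and Cavin2 on the 16 arrays, with circles for replicate 1, squares for replicate 2 and a line joining the population means as a guide. For Cav2 and Cavin1 the leading probe set alone was called in any comparison, and the others stayed at or under 178 and 119.

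Cavin2, the membrane-bending cavin, was low nearly everywhere. Its leading probe set 1416778_at read 143 and 141 in CD144 positive cells of day 6.5, the only arrays above 100, against 39.9 and 36.9 in CD144 negative cells. In CD144 positive cells of day 3.5 it read 49.7 and 31.7, and in CD41 positive cells 29.3 and 46.7. In VEGF-R2 positive cells the duplicates read 5.51 and 52.8, and the remaining populations gave 2.56 to 31.2. The arrays of CD144 positive cells of day 6.5 were thus above all 14 others.

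No comparison was called in limma for this probe set, and 1 of the 14 had an unadjusted p under 0.05. The log2 difference between CD144 positive cells of day 6.5 and VEGF-R2 positive cells of day 2.5 was 2.51 (SE 0.85, adjusted p = 0.0566), or 3.68 without VEGF-R2 positive replicate 2 (adjusted p = 0.0162). Against CD144 negative cells at day 6.5 it was 1.74 (95% interval -0.06 to 3.54, adjusted p = 0.179). With an offset of 32 in place of 6 both were called, at 1.62 (adjusted p = 0.0117) and 1.30 (adjusted p = 0.0325), and the first was also called with the replicate number as a block (adjusted p = 0.0372). Over all pairs, 3 of 28 were called. A further probe set, 1416779_at, was also highest in CD144 positive cells of day 6.5, at 122 and 47.2, and its population means correlated with the leading ones at 0.84. The probe set 1443832_s_at, whose suffix marks probes shared by transcripts, gave 1.21 to 63.1 with a correlation of 0.34 and was highest in CD144 negative cells at day 6.5. Neither was called in limma, although 8 of their 28 results had an unadjusted p under 0.05.

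Cavin3, the cavin linked to signalling and traffic, was read by 1423771_at. Its signal was 81.5 and 135 in VEGF-R2 positive and 83.1 and 76.2 in VEGF-R2 negative cells. At day 3.5 it was 108 and 154 in CD41 positive against 31.9 and 45.3 in CD41 negative cells, and 198 and 172 in CD144 positive against 33.7 and 70.2 in CD144 negative cells. At day 6.5 it was 258 and 257 in CD144 positive against 86.0 and 83.6 in CD144 negative cells. The later 3 sorts did not overlap, and the day 2.5 sort did.

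Cavin3 was 3.07-fold higher in CD41 positive than in negative cells (log2 difference 1.62, SE 0.44, adjusted p = 0.00937), 3.46-fold higher in CD144 positive than in negative cells at day 3.5 (1.79, adjusted p = 0.00739) and 2.90-fold higher at day 6.5 (1.54, adjusted p = 0.0193). The CD41 call was lost without CD41 positive replicate 2 (1.38, adjusted p = 0.0643) or CD41 negative replicate 1 (1.40, adjusted p = 0.0828), but not without CD41 positive replicate 1 (1.86, adjusted p = 0.0142), and the day 3.5 CD144 call was lost without CD144 negative replicate 1 (1.32, adjusted p = 0.122). The day 6.5 difference stayed at 1.52 to 1.56 whichever array was left out, with adjusted p from 0.0737 to 0.0835. Against VEGF-R2 positive cells, the difference to CD144 positive cells of day 6.5 was 1.25 (adjusted p = 0.0643), and it was called with an offset of 32 (1.07, adjusted p = 0.0341), without dim probe sets (adjusted p = 0.034) and with a robust prior (adjusted p = 0.0469). Its means fell in the order CD144 positive day 6.5, CD144 positive day 3.5, CD41 positive, VEGF-R2 positive, CD144 negative day 6.5, VEGF-R2 negative, CD144 negative day 3.5 and CD41 negative. No neighbours differed past the threshold, and 9 of 28 pairs were called.

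**Figure D3:**
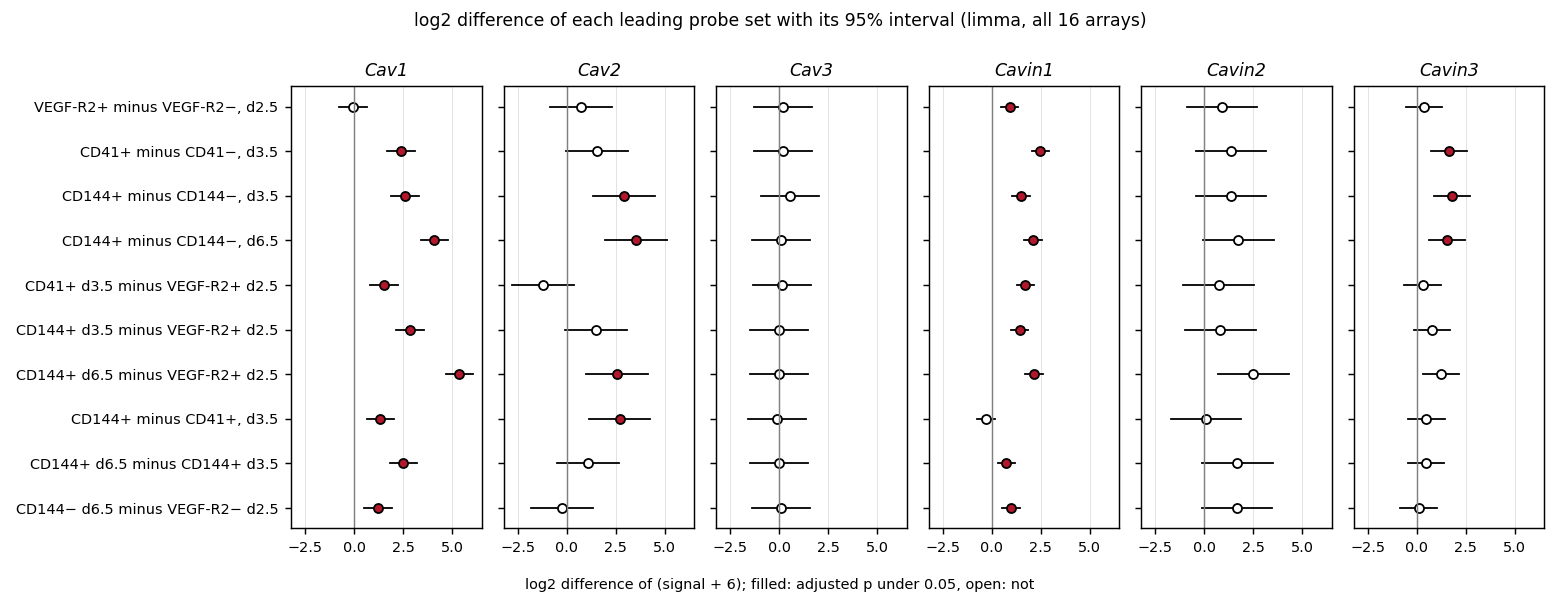
The log2 difference of each leading probe set in 10 comparisons, with its 95% interval from limma. Filled points had an adjusted p under 0.05 and open points did not. For Cav1 the points of the later comparisons lie to the right of 0, up to 5.36, while every Cav3 interval spans 0.

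Read over the 11 probe sets together, all called differences between positive and negative cells pointed to the positive population, and all those between days to the later one. In VEGF-R2 positive against negative cells 1 of 11 was called higher, where 11.1% of all probe sets were. In CD41 positive against negative cells it was 3 of 11, with 13.5% of all. In CD144 positive against negative cells it was 4 of 11 at day 3.5, with 9.49% of all, and 4 of 11 at day 6.5, with 9.41% of all. None was called lower, while 13.8%, 15.8%, 10.5% and 10.1% of all probe sets were. The 11 are not independent, since 8 of them belong to 3 genes. Their median log2 differences in these 4 comparisons were 0.37, 1.45, 1.20 and 1.54, against 0.08, 0.10, 0.10 and 0.07 over all probe sets.

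From VEGF-R2 positive cells, 2 of 11 were called higher in CD41 positive cells (5.02% of all), 2 of 11 in CD144 positive cells of day 3.5 (4.87%) and 3 of 11 in CD144 positive cells of day 6.5 (9.4%). Between CD144 and CD41 positive cells of day 3.5 it was 2 of 11 (6.06%), and between CD144 positive cells of days 6.5 and 3.5 it was 2 of 11 (3.2%). In the negative populations 2 of 11 were higher at day 6.5 than at day 2.5 (5.05%). Between CD144 negative cells of days 3.5 and 6.5 none was called in limma and 2 had an unadjusted p under 0.05, where 0.557% of all were called higher. Cav1 and Cavin1 made up these counts, with 2 exceptions: Cav2 was the third at day 6.5 against VEGF-R2 positive cells, and Cav1 and Cav2 were the pair between CD144 and CD41 positive cells. The comparisons share populations, so they are not independent of each other.

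Whether a gene changed more in the positive than in the negative line of populations was tested by interaction terms. For Cav1 the change from day 2.5 to CD41 positive cells exceeded that to CD41 negative cells by 2.43 (SE 0.47, adjusted p = 0.00472; 3.0 or 1.86 without CD41 positive replicate 1 or 2, both called). This is also the amount by which the CD41 sort differed more than the VEGF-R2 sort of day 2.5. The excess was 2.65 for CD144 at day 3.5 (adjusted p = 0.00216) and 4.15 for CD144 at day 6.5 (adjusted p = 4.71e-05). For Cavin1 it was 1.56 for CD41 (SE 0.30, adjusted p = 0.0042; 1.77 or 1.34 without CD41 positive replicate 1 or 2, both called) and 1.18 for CD144 at day 6.5 (adjusted p = 0.028), and for CD144 at day 3.5 it was 0.57 (adjusted p = 0.352). The Cavin1 day 6.5 term missed the threshold when 1 of 7 of its 8 arrays was left out (adjusted p 0.058 to 0.117). The Cav2 terms were 0.84, 2.22 and 2.84, with adjusted p = 0.79, 0.293 and 0.153, and those of Cavin3 were 1.25, 1.42 and 1.16, none called. Fitted on the 4 compared populations alone, the later pair of Cav2 terms was called (adjusted p = 0.0317 and 0.0102), while the CD41 term of Cav1 and the day 6.5 term of Cavin1 were not (adjusted p = 0.0727 and 0.0585). Of the 11 probe sets, 2, 1 and 2 were called higher in these 3 tests, where 2.33%, 3.1% and 2.8% of all probe sets were.

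The profiles of the genes were alike to differing degrees. Cav3, dim on every array, correlated with the others at 0.33 to 0.60. Over the 8 population means of log2(signal + 6), Cav1 correlated with Cavin2 at 0.94, with Cavin3 at 0.89, with Cav2 at 0.88 and with Cavin1 at 0.87, while Cav2 correlated with Cavin3 at 0.92 and with Cavin1 at 0.71. All 8 points of these correlations come from the same 16 arrays, so they are given as a description. Each member was then set against 13527 other genes with a population mean above the median signal. Each such gene was taken by its best-matching single-gene probe set. The profiles most like Cav1 were those of Csrp1, a LIM protein of smooth muscle (0.98), Timp3, an inhibitor of matrix proteases (0.98), and Arhgap18 (0.97). For Cav2 they were Tprgl (0.98), Tns1, a focal adhesion protein (0.98), and Dll4, the Notch ligand of arteries (0.98). For Cavin1 they were Pla2g15, Mtarc2 and Snap29 (0.99 each). For Cavin2 they were Golga2, Nr2f2, a factor of venous endothelium, and Gmppa (0.99 each), and for Cavin3 Tmtc2, Tmem255a and Rcsd1 (0.99 each).

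Genes of other proteins linked to caveolae were listed as partners, together with the flotillins of other membrane domains. Not all of them are needed for caveolae. Of these 16 genes, 15 were measured, each by its brightest probe set. In CD144 positive against negative cells at day 6.5, 3 of the 15 were called higher and 1 lower, where 13.4% and 11.9% of all genes were. The median of the 15 was 0.02, against 0.14 over all genes. Plvap, which forms the diaphragm across the neck of endothelial caveolae, read 2904 and 2285 against 115 and 93.2, a log2 difference of 4.56 (adjusted p = 9.04e-08). Ehd4, a membrane-shaping ATPase, was 1.73 higher and Flot1, a flotillin of other membrane domains, 1.20 higher. Ror1, a receptor known to scaffold cavin-1 and caveolin-1, went the other way by -1.21 (131 and 154 against 409 and 279, adjusted p = 0.00323).

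At day 3.5, CD144 positive cells had 5 partners higher and 1 lower than CD144 negative cells, where 13.7% and 10.3% of all genes were. Ehd2, the ATPase that sits at the caveolar neck, read 331 and 268 against 41.1 and 34.1, a difference of 2.81 (adjusted p = 0.00213), and Plvap was 2.96 higher. In CD41 positive against negative cells 5 were higher and 4 lower (19.2% and 17.2% of all genes), with Plvap at 2.54 above, and the dynamin Dnm1 at -2.96, Ror1 at -2.77 and Pacsin1, which bends membranes, at -2.11 below. At day 2.5, 3 were higher (Plvap, Ehd4 and Flot1) and Ror1 was lower by 1.70, where 16% and 13.7% of all genes were. Plvap, Ehd4 and Flot1 were called higher and Ror1 lower in all 4 sorts. The duplicates in CD41 positive cells stood far apart for Ehd2 (38.3 and 246.8) and Pacsin1 (14.7 and 89.0). In CD144 against CD41 positive cells of day 3.5 the partners called were Pacsin1 (2.14), Ror1 (1.55), Pacsin3 (1.0) and Flna (0.69), all higher, where 9.59% of all genes were.

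Along the positive line, Plvap was 1.85 higher in CD144 positive cells of day 6.5 than in VEGF-R2 positive cells (adjusted p = 0.000751), and its excess over the negative line was 3.61 (adjusted p = 0.000155). Flot1 was 1.5 higher. These were the 2 partners called in that comparison (12.8% of all genes higher), and none of the 15 was called by limma between the CD144 positive cells of days 3.5 and 6.5 (4 had an unadjusted p under 0.05, and 4.23% of all genes were called higher), the step at which Cav1 rose by 2.51. The muscle cavin Cavin4 was called in none of the 14 comparisons in limma (4 had an unadjusted p under 0.05) and read at most 122.

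**Figure D4:**
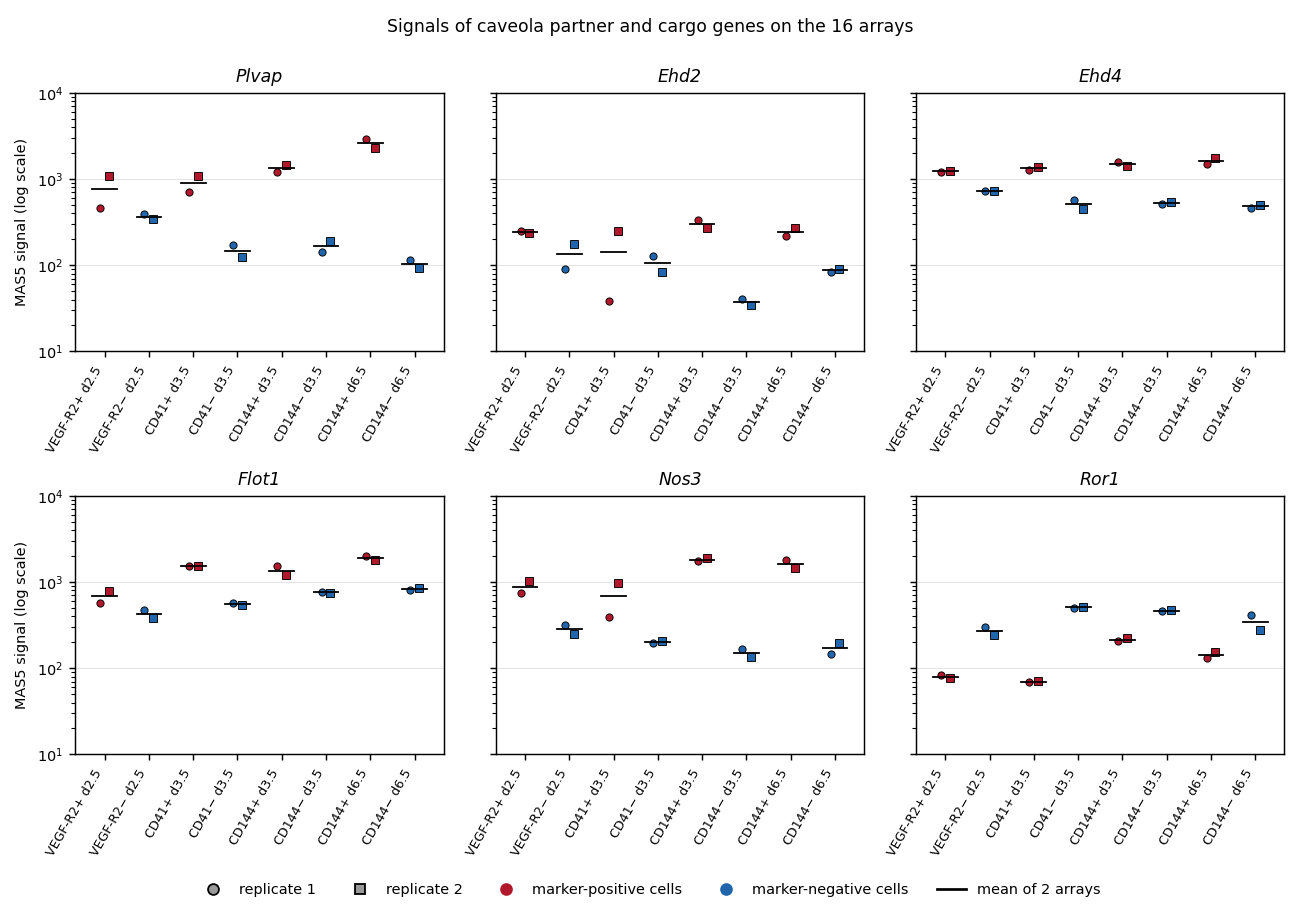
MAS5 signal (log scale) of 6 caveola partner or cargo genes on the 16 arrays, with symbols as in the plot of the member signals. Plvap, Ehd4, Flot1 and Nos3 are higher in the red positive populations of the CD41 and CD144 sorts, and Ror1 is higher in the blue negative ones.

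Of 20 listed genes whose proteins are known to bind caveolin or to sit in caveolae, 17 were measured. At day 6.5, 5 were higher and 1 lower in CD144 positive than in negative cells, where 13.4% and 11.9% of all genes were. Their median was 0.0035, against 0.14 over all genes. Nos3, endothelial nitric oxide synthase, read 1790.4 and 1444 against 145 and 198 (log2 difference 3.20, adjusted p = 2.35e-06). The endothelial receptors Acvrl1, Eng and Kdr were 3.62, 3.49 and 3.66 higher, and Scarb1, a lipoprotein receptor, 1.12 higher. Lrp6, a Wnt co-receptor, was lower by 0.97. Kdr is also the marker of the first sort.

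At day 3.5, 6 of the 17 were higher and 3 lower in CD144 positive cells (13.7% and 10.3% of all genes; median 0.065 against 0.17), with Acvrl1 at 3.86, Nos3 at 3.54 and Eng at 2.73 above. Cd36, a fatty acid receptor that caveolin-1 helps to bring to the surface, had a difference of -4.71, at 2.5 and 28.7 against 456 and 435. In CD41 positive cells 8 were higher and 4 lower than in CD41 negative cells (19.2% and 17.2% of all genes; median 0.19 against 0.18), the widest being Kdr (4.93), Acvrl1 (2.92), the channel Trpc1 (-2.23) and Eng (2.07). In VEGF-R2 positive cells 6 were higher and 4 lower than in negative ones (16% and 13.7% of all genes; median 0.14 against 0.16), the widest being Trpc1 (-2.45), Acvrl1 (1.87), Scarb1 (1.78) and Nos3 (1.62). Between CD144 positive cells of days 3.5 and 6.5 none of the 17 was called in limma, and 3 had an unadjusted p under 0.05. Of all genes, 4.23% were called higher and 4% lower in that comparison. Nos3 was 1.53 higher in CD144 positive than in CD41 positive cells of day 3.5 (limma adjusted p = 0.00421), with CD41 positive duplicates of 396 and 982. Cav1 and Cav2 were called higher there too, by 1.34 and 2.70. Without CD41 positive replicate 1 their differences were 0.77 and 1.15.

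Marker signals of cell types, among them those that carry caveolae, were set beside these results. In a sorted population more transcript per cell and more cells of a type cannot be told apart. All 14 endothelial markers were above 100 on both arrays in CD144 positive cells of days 3.5 and 6.5. Their sum was 42778 and 45524 at day 6.5, against 3649 and 4582 in CD144 negative cells, where 4 of the 14 were above 100. It was 26182 and 25413 in CD144 positive cells of day 3.5, against 2775 and 3040.1. In the CD144 sorts the endothelial sum was higher where Cav1, Cav2, Cavin1 and Cavin3 were. That list holds Cdh5, the gene of the CD144 sort marker. It also holds genes such as Pecam1, Tie1, Cldn5 and Robo4, which the study picked as higher in CD144 positive cells of these same arrays. The direction of the sum in the CD144 sorts is therefore not independent of the sort or of that choice. At day 2.5 the endothelial sum was 16958 and 23020 in VEGF-R2 positive against 4326 and 4046 in negative cells. There 12 of the 14 markers were called higher, where 16% of all genes were, while Cavin1 alone of the 6 genes was called. In CD41 positive cells the sum was 14808 and 24767 against 2079 and 2177 in negative cells. There 13 of the 14 were called higher, where 19.2% of all genes were, and Cav2 was not called.

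The 5 smooth muscle markers summed to 15994 and 18006 in CD144 positive cells of day 6.5, against 5921 and 6527 in CD144 negative cells of that day and 5129 and 4356 in CD144 positive cells of day 3.5. Acta2, smooth muscle actin, read 11422 and 13048, while Myh11, the myosin heavy chain of mature smooth muscle, read 33 and 15. Of the 5 markers, 2 were called higher and 0 lower in CD144 positive than in negative cells at day 6.5, where 13.4% of all genes were higher. Between CD144 positive cells of days 3.5 and 6.5, 1 was called higher and 0 lower (4.23% of all genes higher). The sum, made up mostly of Acta2, was highest in the population where Cav1 was highest. The 12 fibroblast and mesenchyme markers summed to 9329.6 and 8219.6 in CD144 positive against 6259 and 6822 in CD144 negative cells of day 6.5. There 1 of the 12 was called higher and 1 lower. At day 3.5 their sum was lower in CD144 positive cells, 1919.7 and 1851 against 3055 and 2608, with 1 called higher and 2 lower. The 8 endoderm markers summed to 38254 and 38350 against 13130 and 12906 at day 6.5 (4 called higher, 2 lower). At day 3.5 they summed to 24022 and 25167 against 5225 and 5565 (3 higher, 2 lower). Of all genes, 13.4% were called higher and 11.9% lower in the CD144 sort of day 6.5, and 13.7% and 10.3% in that of day 3.5. Of these 8 genes, 7 were above 100 on both CD144 positive arrays at day 6.5 and 4 at day 3.5. The list holds Sox7, which the study names among factors enriched in CD144 expressing cells of the embryo. Its sum is thus not a measure of endoderm alone. In CD41 positive cells the smooth muscle sum was 631 and 1144, against 2188 and 2171 in CD41 negative cells. The fibroblast sum was 847 and 1099 against 1309 and 1331. Both were lower in CD41 positive cells, while Cav1, Cavin1 and Cavin3 were called higher there. The part of these cell types in the levels of Cav1 and the other members at day 6.5 was not tested.

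**Figure D5:**
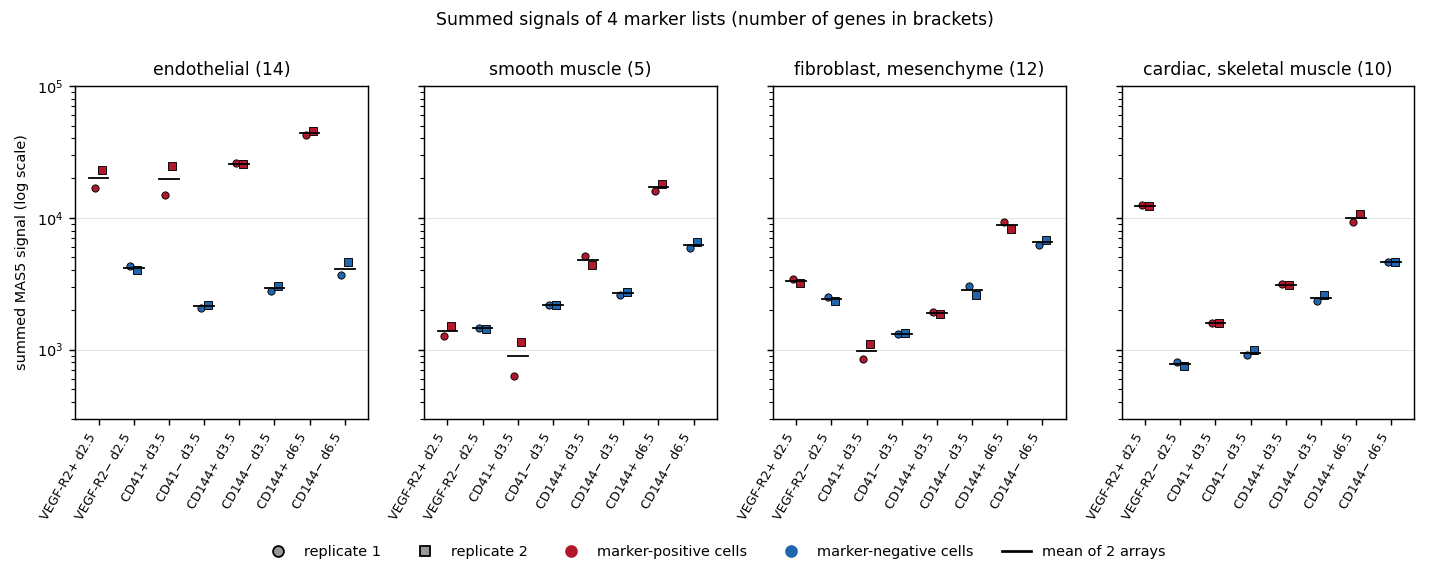
Summed MAS5 signal (log scale) of 4 marker lists on the 16 arrays, with symbols as in the plot of the member signals. CD144 positive cells of day 6.5 have the highest endothelial sums, 42778 and 45524, and also the highest smooth muscle sums, 15994 and 18006.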

How the data were processed

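RNA of 8 sorted populations, 2 arrays each, was measured on Affymetrix Mouse Genome 430 2.0 arrays. The deposited values are MAS5 signal intensity values on a linear scale, computed by the authors per the labels, and the mean signal of each array between the 2nd and 98th percentiles is 500; the software version is not given in the sources used here. Detection calls and scanner files were not used here. Groups came from the sample titles.

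Of 45101 probe sets, 64 controls were left out. GEO's platform annotation gave 34945 probe sets 1 symbol, 932 several and 9160 none. A gene with several probe sets was led by the one with the highest mean. log2(signal + 6) was fitted in limma 3.58.1 under R 4.3.3 with 8 population means over 16 arrays and a mean-variance trend, with Benjamini-Hochberg adjustment over 45037 probe sets, 14 comparisons and a threshold of 0.05. With 2 arrays per population, the number of arrays limits the precision. The fit was tested on simulated data. All probe sets of the members were named, with the lists' called genes of largest change and the 3 genes per member with the most alike profile. Genes outside that rule, named where a count was 5 or fewer or for a reading beside a result, were chosen after their values were seen.

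The members and gene lists were chosen with earlier results of these data known. Alternatives were offsets of 1 and 32, quantile normalization, equal array medians, leaving out dim probe sets, fits of fewer groups, a replicate block, a robust prior, a 90% bound on the fold, and leaving out each array. Sequences came from RefSeq tables of GRCm38.p6. Plots were made in Python 3.11.15 (matplotlib 3.10.9).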

Additional observations from a re-analysis of the deposited data

Results flagged for a closer look

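The change over time differed between the positive and the negative line of populations for 2 of the 6 genes, by the interaction test in limma. For Cav1 the log2 change from day 2.5 was larger in the positive line by 2.43 for CD41, by 2.65 for CD144 at day 3.5 and by 4.15 for CD144 at day 6.5. For Cavin1 it was larger by 1.56 for CD41 and by 1.18 for CD144 at day 6.5. Fitting only the 4 compared populations took away the call for Cav1 with CD41 (adjusted p = 0.0727) and for Cavin1 at day 6.5 (adjusted p = 0.0585), and gave Cav2 one for CD144 at days 3.5 and 6.5 (2.22, adjusted p = 0.0317, and 2.84, adjusted p = 0.0102).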

How the results depend on the processing

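Of the 30 called differences of single genes, 15 were called under every alternative. A further 9 gene results were called under an alternative only. Gene results that no setting called, among them all those of Cav3, were left out of the tally that follows. Over the remaining results and the alternatives, 463 kept their side of the threshold, 71 lost a call, 15 gained one and 2 turned direction. Both turns concern Cav2 and the CD41 positive arrays: from VEGF-R2 positive cells it was 0.35 without CD41 positive replicate 1 (range without 1 array -2.75 to 0.35), and against CD41 negative cells -0.00059 without replicate 2 (range -0.00059 to 3.10).

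Counts of called probe sets, of 11, that moved by over 1.5 times under at least 1 alternative were these. For CD144 negative day 6.5 against VEGF-R2 negative cells, 2 became 1 with quantile normalization, with equal medians or with only the compared groups, and 0 with the robust prior or the 90% bound beyond 2-fold; without 1 array it was 0 to 2. For CD144 positive cells of days 6.5 and 3.5, 2 became 1 with offset 1, quantile normalization, equal medians, positive arrays only, the robust prior, the bound, or without any 1 array (1 to 1). For CD144 positive day 6.5 against VEGF-R2 positive cells, 3 became 5 with offset 32, and 2 to 4 without 1 array. For CD144 against CD41 positive cells, 2 became 0 with only the compared groups or the robust prior and 1 with the bound, and 0 to 2 without 1 array. For CD41 against VEGF-R2 positive cells, 2 became 1 with only the compared groups or the bound, and 1 to 3 without 1 array. For VEGF-R2 positive against negative cells, 1 became 0 with the bound. For CD144 positive against negative cells at day 3.5, 4 became 2 to 4 without 1 array. For the interactions, CD41 went from 2 to 1 with only the compared groups or the robust prior, CD144 at day 3.5 from 1 to 2 with only the compared groups, and CD144 at day 6.5 from 2 to 1 with equal medians, the robust prior or the bound, and 1 to 2 without 1 array. Smaller moves without 1 array were 2 to 4 for 3 in CD41 positive against negative cells, 3 to 4 for 4 in CD144 positive against negative cells at day 6.5, and 2 to 3 for 2 in the CD41 interaction. The causes were not tested.

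Replicate numbers did not pair the arrays: over 28 pairs of populations the correlation of duplicate differences was -0.047 to 0.047, with 0 pairs above 0.1. The replicate block changed 1 call, Cavin2 in CD144 positive day 6.5 against VEGF-R2 positive cells (2.51, adjusted p = 0.0372 with the block), which took that count from 3 to 4, and moved no other count. The filter on dim probe sets left 6 of the 11.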
